A study of Homo sapiens with 6 samples.

Results

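The response to GAS5 overexpression was described here as gene sums in HCT116 cells, a human colorectal carcinoma cell line grown in McCoy's 5a medium. GAS5, growth arrest specific 5, is a long non-coding RNA that also carries small nucleolar RNAs in its introns. The comparison was between a negative control group (NC) and cells given a GAS5 plasmid (GAS5), with 2 libraries per group, and a further group given YAP siRNA (siYAP) in the same series is shown beside some genes. The sample labels place NC, GAS5 and siYAP under one siRNA field and do not state what the NC cells received, so the plasmid, its delivery and GAS5 itself cannot be told apart. All groups were made in 1 cell line.

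The members are genes, not transcripts. The estimated counts of every mRNA transcript were added up by gene symbol, and a gene was tested when the mean of its NC and GAS5 sums was at least 50. Of 19871 symbols, 11910 met this minimum, and they held 99.6% of the counts in both groups. Each value is the authors' mean of the 2 libraries of a group, so there is 1 value per group. The differences therefore have no replicate check, no spread between cultures and no p-value. A gene is said to have risen or fallen where the groups were at least 2-fold apart after scaling counts to a total of 1000000 per group (CPM), on the log2 scale with a prior count of 2. A 95% counting interval (exact Clopper-Pearson, on the counts behind the means) is given for the main genes and covers counting error only.

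Depth was 27206123 mean counts in NC and 25521577 in GAS5. GAS5 itself is a non-coding RNA with no row among the mRNA transcripts and was not analysed here, so its level could not be used to check the groups. ITGA2B, TRIM10 and NAP1L5 lay at the minimum of 50, with 56.5, 57 and 37 mean counts in NC and 43.5, 43 and 63 in GAS5. IDUA, HMGN5 and PTCHD2 lay just below it, with 62, 54.5 and 51.6 mean counts in NC and 37.5, 45 and 48.3 in GAS5. The epithelial markers KRT8, KRT18, KRT19 and EPCAM were at 65347, 33810, 37514 and 5959 mean counts in NC. Of the 12 epithelial markers listed 9 were tested, among them the intestinal marker CDX2. The intestinal markers CDX1, VIL1 and LGALS4 were at 0, 0 and 2 mean counts in NC, far below the minimum. Of 9 fibroblast markers only COL1A1 was tested, and COL3A1, DCN, LUM, PDGFRA and THY1 were at 0 in both groups. Of 13 leukocyte markers only CD68 was tested, with PTPRC, MS4A1, FCGR3A and NKG7 at 0, and none of 7 endothelial markers reached the minimum. The summed level went from 14.5 to 22.2 CPM for the fibroblast list, from 9.06 to 14.5 CPM for the leukocyte list and from 1.73 to 1.94 CPM for the endothelial list, and the part of these differences in the results below was not tested. In bulk RNA, fewer cells with a transcript and less transcript per cell cannot be told apart.

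Some background helps to read the groups of genes below. Cells that detect foreign RNA or DNA make type I and type III interferons, which act through STAT2, IRF9 and their partners on interferon-stimulated response elements (ISRE) and switch on antiviral genes. Immediate-early genes such as JUN, FOS and EGR1 are transcribed within minutes of many stimuli without new protein synthesis. In the amino acid response the transcription factor ATF4 switches on amino acid transporters, aminoacyl-tRNA synthetases and serine synthesis enzymes, often through CCAAT-enhancer binding protein and ATF response elements (CARE). E2F factors control genes of DNA replication.

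The promoter sequences of several genes described below are shown first, to let the motifs counted below be seen in their context. They were taken from RefSeq on GRCh38.p14, lie upstream of the annotated start, run 5′ to 3′ on the strand of the gene, and have the motif in capitals. The motifs were GAAANNGAAA for ISRE, GGGNNTTTCC for NF-kappa B, TGANTCA for AP-1, TGATGNAA for CARE and TTTNGCGC for E2F, searched on both strands with overlaps allowed. Shown with ISRE is IFIT1 (chr10:89392483-89392542, plus strand), and with NF-kappa B motifs TNFAIP3 (chr6:137867169-137867228, plus strand). CXCL8 is shown with its AP-1 motif (chr4:73740409-73740468, plus strand). The CARE motif is shown in ATF3 (chr1:212565192-212565251, plus strand), ASNS (chr7:97872444-97872503, minus strand) and CHAC1 (chr15:40953236-40953295, plus strand). The E2F motif is shown in MCM6 (chr2:135876519-135876598, minus strand) and ORC6 (chr16:46689514-46689573, plus strand).
IFIT1: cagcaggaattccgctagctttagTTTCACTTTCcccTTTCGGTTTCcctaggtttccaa
TNFAIP3: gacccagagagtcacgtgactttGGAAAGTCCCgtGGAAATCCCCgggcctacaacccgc
CXCL8: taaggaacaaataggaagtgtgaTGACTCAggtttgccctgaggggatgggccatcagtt
ATF3: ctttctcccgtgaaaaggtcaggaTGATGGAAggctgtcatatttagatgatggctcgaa
ASNS: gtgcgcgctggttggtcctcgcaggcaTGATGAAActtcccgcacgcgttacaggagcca
CHAC1: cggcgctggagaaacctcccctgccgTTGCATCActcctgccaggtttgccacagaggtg
MCM6: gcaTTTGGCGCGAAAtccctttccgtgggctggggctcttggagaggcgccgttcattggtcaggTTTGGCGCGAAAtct
ORC6: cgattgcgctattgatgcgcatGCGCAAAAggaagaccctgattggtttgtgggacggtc

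Few genes reached 2-fold. Of the 11910 genes tested, 94 were at least 2-fold higher in GAS5 (0.789%) and 36 at least 2-fold lower (0.302%). More genes rose than fell in this count, but with only the most abundant transcript of each gene 144 rose and 163 fell. Of the 94 genes, 26 were at least 4-fold higher and 10 at least 8-fold higher. Among the genes that fell, KIAA0226 and GOLGA8CP were at least 4-fold lower and none was 8-fold lower. With older symbols of a gene merged into the current one, 24 genes were at least 4-fold higher, 9 at least 8-fold higher and 1 at least 4-fold lower. Most genes hardly differed between the groups. The median log2 ratio over all genes tested was -0.03, and 92.9% of genes lay within 0.5 of 0 on the log2 scale. Smaller differences ran both ways, with 270 genes at least 1.5-fold higher and 265 at least 1.5-fold lower. The 94 genes together took 1548 CPM in NC and 4969 CPM in GAS5, and the 36 genes took 1102 CPM in NC and 443 CPM in GAS5.

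Weakly expressed genes made up much of both sets. Of the 1642 genes with a mean count from 50 to 200, 42 rose and 25 fell. Where the mean count was 5000 or more, 4 of 892 genes rose and 1 fell. Among the abundant genes that rose were OAS3, ISG15 and HSPA1B, and the abundant gene that fell was HIST2H2AA3, which is taken up with the divided symbols below. Counting error alone put the whole interval beyond 2-fold for 64 of the 94 genes and 15 of the 36. These intervals do not cover how reads were divided between transcripts or symbols. The 15 include KIAA0226, HIST2H2AA3, TMEM55A, SGK223, GLTSCR2 and IQCJ-SCHIP1, and the 64 include PIP4P2, LARGE2 and CCT6. All of these are taken up with the divided symbols below. Through their GAS5 value alone, 25 of the genes that rose passed the minimum of 50, and 11 of those that fell passed it through their NC value alone. Transcripts assembled from the reads, without an Ensembl identifier, held most counts in 11 of the 94 genes, in 12 of the 36, and in 10.7% of all genes tested.

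**Figure D1:**
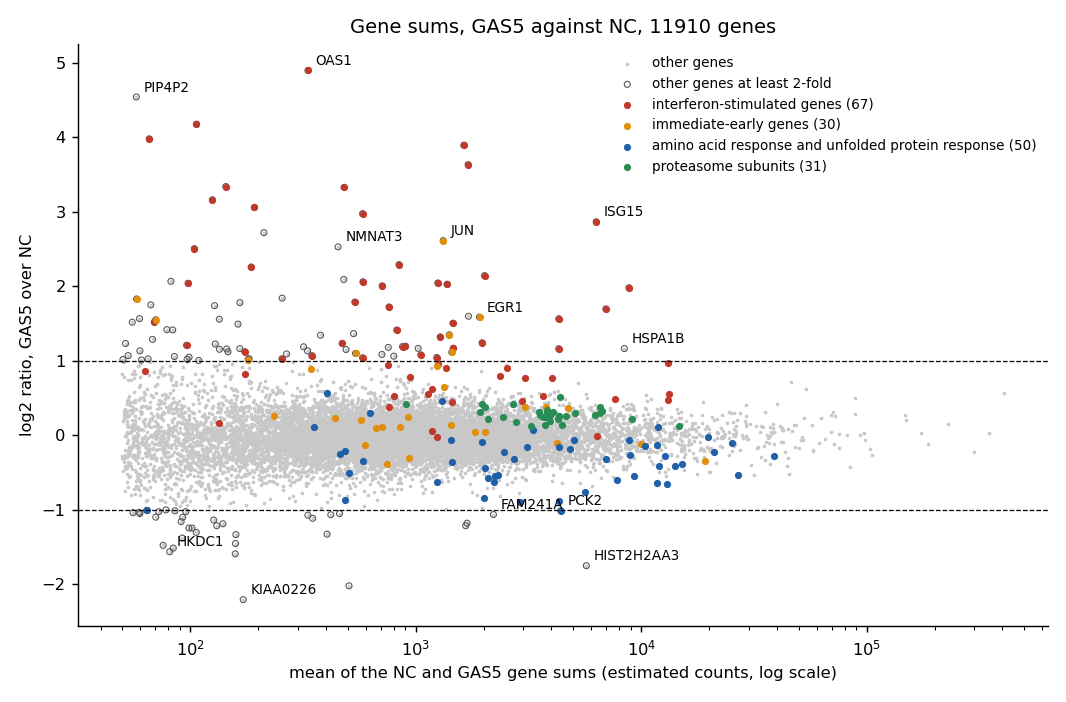
Log2 ratio of GAS5 over NC (y axis) against the mean of the NC and GAS5 gene sums in estimated counts (x axis, log scale) for 11910 genes, 1 point per gene, with 4 gene lists in colour, open circles for other genes at least 2-fold apart and dashed lines at 2-fold. Interferon-stimulated genes are 42 of the 94 points above the upper dashed line, with OAS1 at the top at 4.90, and 25 of the 36 genes that fell have a mean count below 200.

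Interferon-stimulated genes led the genes that rose. Of 84 genes listed 67 were tested, 42 rose, against 0.789% of all genes, and none fell. The list median was 1.19 against -0.03 for all genes. This list, like the others, was chosen with earlier results of these data known. OAS1, which makes the second messenger that activates RNase L, lies on chromosome 12 from 112906777 to 112933222 (GRCh38, GENCODE 29). It went from 21 mean counts in NC to 645 in GAS5, a log2 ratio of 4.90 with a counting interval of 4.59 to 5.51. ISG15, the ubiquitin-like modifier, went from 1608 to 11022 mean counts, with a log2 ratio of 2.87. The other genes among the 10 with the largest ratios were IFI27, IFI44, IFIT1, IFI6, IFITM1, IFIT2, CMPK2 and IFIT3, between 3.06 and 4.18, and PIP4P2, which is taken up with the divided symbols below. OAS1, IFI27, IFI44, IFITM1, CMPK2 and IFIT3 had only 6.5 to 42 mean counts in NC. These and 3 further genes of the 42 had fewer than 50 mean counts in NC and so were tested only through their GAS5 value. Of the 57 listed genes with at least 50 in NC, 33 rose, none fell and the median was 1.08. IFIT1, IFI6 and IFIT2 are among these, with 216.5, 268 and 90.5 mean counts in NC and 3050.5, 3146 and 871.5 in GAS5. The response did not reach every member. RNF213 and N4BP1 had log2 ratios of -0.01 and -0.03, FAM46A 0.06 and ISG20 0.17.

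Many classic members stayed below the minimum in this cell line. RSAD2 went from 1 to 22.5 mean counts, IFI44L from 0.5 to 21.5, XAF1 from 1 to 12.5 and MX2 from 0 to 13. Of the interferon ligands on the lists, IFNL1 was at 31.5 mean counts, IFNL2 at 12.5 and IFNB1 at 2.5 in GAS5, with 0 for each of them in NC and in siYAP. Of the 28 genes tested for nucleic acid sensing and interferon signalling, 6 rose, against 0.789% of all genes, and all 6 are also among the 42. They included IRF7, IFIH1, DDX58, IRF9 and TLR3. The adaptor MAVS had a log2 ratio of -0.38 and the kinase JAK1 one of -0.34, with 10370 and 4656 mean counts in NC. No gene of antigen presentation rose among 20 tested, and the list median was 0.28. PSMB9, a subunit of the immunoproteasome, was at 0.93, NLRC5, an activator of class I genes, at 0.87, and B2M at 0.10 on the log2 scale.

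The remaining 52 genes that rose lie outside the interferon list, and 35 of the 94 belong to none of the lists used here. Among the lists, immediate-early genes held the most of these 52. Of 30 tested 8 rose, against 0.789% of all genes, none fell, and 24 were above 0, against 45.3% of all genes, with a median log2 ratio of 0.25. JUN, a subunit of AP-1, lies on chromosome 1 from 58780788 to 58784327 and went from 391 to 2255.5 mean counts, with 595.5 in siYAP. Its log2 ratio was 2.61, with a counting interval of 2.51 to 2.73. EGR1, a zinc finger transcription factor on chromosome 5 from 138465490 to 138469315, went from 1004 to 2831.5 mean counts (log2 ratio 1.59), with 1551 in siYAP. Its relatives EGR2 and EGR3 had log2 ratios of 1.83 and 1.55, from only 25.5 and 36.5 mean counts in NC. ATF3, a stress-induced factor of the ATF family, went from 830 to 1986 mean counts (1.35), and FOS, FOSB and CSRNP1 had log2 ratios of 1.10, 1.01 and 1.11.

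The immediate-early group did not move as one. MYC, one of its most abundant members, was at 10707 mean counts in NC and 9245 in GAS5, a log2 ratio of -0.12. KLF4 was at -0.39, IER3 at -0.35 and BTG1 at -0.30. Several of the genes that rose were also above NC in siYAP, with log2 ratios in siYAP of 1.36 for EGR3, 0.82 for EGR2, 0.68 for EGR1 and 0.65 for JUN, while ATF3 was at -0.13. Both comparisons use the same NC values, so an NC value that is off by chance moves both ratios.

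Inflammatory genes controlled by NF-kappa B gave 3 genes that rose of 18 tested, against 0.789% of all genes. The list median was 0.12, which was 0.33 without a minimum count. CXCL8, the neutrophil chemokine interleukin-8, lies on chromosome 4 from 73740506 to 73743716 and went from 57.5 to 366 mean counts, a log2 ratio of 2.72 with a counting interval of 2.48 to 3.06. TNFAIP3, which encodes the NF-kappa B inhibitor A20, lies on chromosome 6 from 137867188 to 137883312 and went from 116 to 395 mean counts (1.84). RELB, a subunit of NF-kappa B, went from 309.5 to 750.5 (1.36). In siYAP, against the same NC values, the log2 ratios were 1.16 for CXCL8, 0.16 for TNFAIP3 and 0.52 for RELB. ICAM1 and SOD2, both tested, were at -0.10 and -0.09, and CXCL10 at 0 and 3 mean counts was not tested.

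Other genes that rose have no shared label. NMNAT3, an enzyme of NAD synthesis on chromosome 3 from 139560180 to 139678017, went from 139.5 to 765 mean counts, with 136.5 in siYAP. Its log2 ratio of 2.53 had a counting interval of 2.36 to 2.74, and its most abundant transcript alone, ENST00000296202, went from 51.5 to 531 mean counts. ARRDC3, an arrestin family member, was carried by 1 transcript and went from 891.5 to 2535 mean counts (1.60), with 973.5 in siYAP. PYGM, the muscle form of glycogen phosphorylase, went from 32.0 to 132 mean counts (2.07) and NEB, which encodes the muscle protein nebulin, from 77.5 to 254.5 (1.78), with 94.97% of the NEB counts and 39.9% of the PYGM counts on assembled transcripts. CPA4, a carboxypeptidase, went from 70.5 to 199 (1.56), and the helicase gene DHX57 from 88.5 to 237 (1.49). TRIM34, an antiviral TRIM gene that was not on the interferon list, went from 60.9 to 195 (1.74). LGALS9, encoding galectin-9, had 30.5 and 88.5 mean counts (1.57), and REC8, the meiotic cohesin subunit, had 29 and 81.5 (1.52). LGALS9, REC8, PYGM, AL662899.2 and TMEM160 each had fewer than 50 mean counts in NC. DUSP8, a phosphatase of stress kinases, had a log2 ratio of 1.34.

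**Figure D2:**
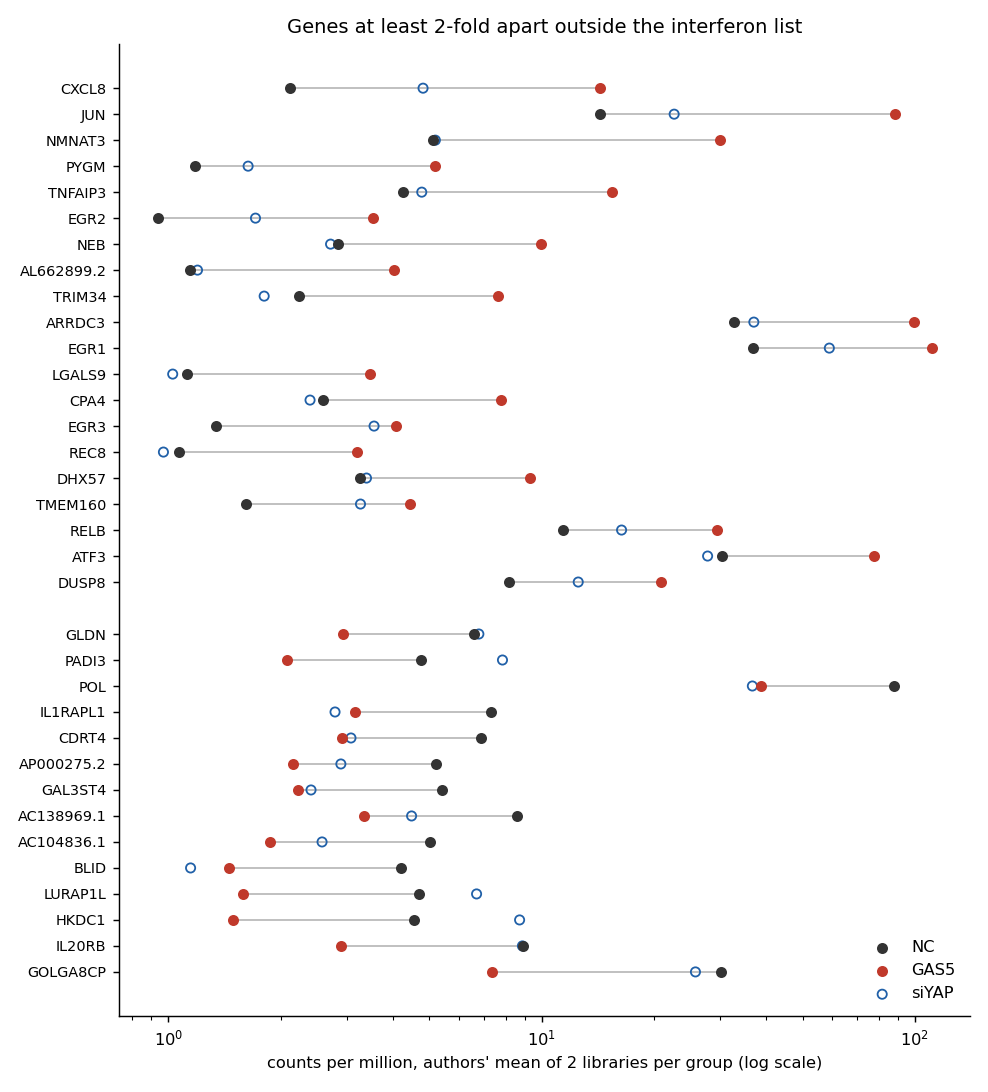
CPM (x axis, log scale) in NC (black), GAS5 (red) and siYAP (open blue), each the authors' mean of 2 libraries, for the 20 genes that rose furthest and the 14 that fell furthest outside the interferon list, without the divided symbols. JUN, EGR1, ARRDC3 and ATF3 are the abundant genes that rose, and most genes that fell were below 10 CPM in NC.

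Heat shock genes were nearly all on the higher side. Of 35 tested 33 were above 0, against 45.3% of all genes. The median log2 ratio was 0.27, and 1 gene rose, against 0.789% of all genes. That gene was HSPA1B, an inducible HSP70, on chromosome 6 from 31827735 to 31830255, which went from 5425 to 11405 mean counts with 5473 in siYAP. Its log2 ratio was 1.16, with a counting interval of 1.13 to 1.20. HSPA1A, its near-identical neighbour, went from 27.3 to 70.5 mean counts and was not tested. Reads of this pair cannot be assigned with certainty, and the sum of both had a log2 ratio of 1.17. HSPA8, the constitutive HSP70, went from 36543.5 to 56192 mean counts (0.71), and HSPB8, BAG3 and DNAJB2 were at 0.62, 0.57 and 0.56. The mitochondrial HSPA9 was at -0.21.

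The subunits of the proteasome showed a small shift in 1 direction. All 31 were above 0, from 0.13 for PSMA6 to 0.51 for PSMC4, with a median of 0.27, and none rose 2-fold. Summed over the list, the level went from 4667 to 5594 CPM. Genes of DNA replication had a median of 0.22, with 41 of 49 above 0 and none at 2-fold. CCNE2, a cyclin of the G1/S step, was at 0.64, ORC6 at 0.53, MCM5 at 0.50 and RFC4 at -0.23. In siYAP the median of the same 49 genes was -0.61. Genes of mitosis and the spindle had a median of -0.06, with 17 of 51 above 0, from CENPF at -0.41 to the phosphatase CDC25A at 0.66. Nuclear genes of oxidative phosphorylation had a median of 0.15, with 56 of 62 above 0, while 12 of the 13 mRNAs encoded by mitochondrial DNA were below 0 with a median of -0.19.

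**Figure D3:**
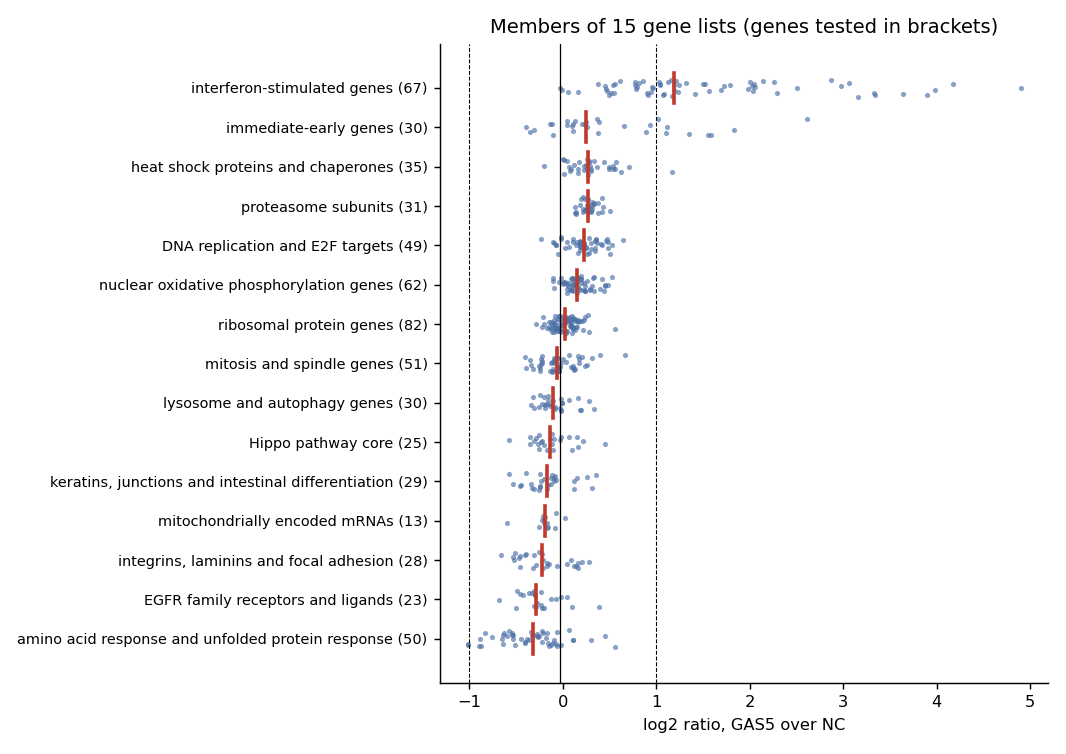
Log2 ratio of GAS5 over NC (x axis) for the members of 15 gene lists, 1 point per gene with vertical scatter added for visibility; red bars are list medians, the solid line is the median of all genes and dashed lines mark 2-fold. The interferon list has a median of 1.19, proteasome subunits are tightly spaced around 0.27, and the joint list of amino acid and unfolded protein response genes lies lowest with a median of -0.32.

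On the lower side, the joint list of amino acid response and unfolded protein response genes had the lowest median of the lists examined. Of 50 genes tested 44 were below 0, against 54.7% of all genes. The median log2 ratio was -0.32, and 2 genes fell, against 0.302% of all genes. PCK2, the mitochondrial phosphoenolpyruvate carboxykinase, lies on chromosome 14 from 24094053 to 24110598. It went from 6010.5 to 2788 mean counts, with 5607 in siYAP, and its log2 ratio of -1.02 had a counting interval of -1.06 to -0.97. ALDH1L2, a mitochondrial folate enzyme, went from 88 to 40 mean counts (-1.01), with an interval of -1.45 to -0.66. Both ratios lie at the 2-fold threshold, and both genes missed it under TMM scaling and under DESeq2 size factors.

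Among the other members were the cystine transporter gene SLC7A11 at -0.90, from 3880 to 1947 mean counts, and TRIB3, which encodes a pseudokinase that inhibits ATF4, at -0.89, from 5720 to 2894. SLC6A9, a glycine transporter, was at -0.87, and CHAC1, which degrades glutathione, at -0.84. ASNS, asparagine synthetase, was at -0.66, from 16290.5 to 9702 mean counts. PHGDH and PSAT1 of serine synthesis were at -0.64 and -0.60, and DDIT3, which encodes the stress factor CHOP, at -0.64. These members, apart from SLC7A11, were chosen after their values were seen. ATF4 itself was at -0.22, against the median of -0.32 for the whole list. The members above 0 were chaperones and folding factors of the endoplasmic reticulum, SDF2L1 at 0.56, MANF at 0.45, CRELD2 at 0.30, PDIA4 at 0.11, DNAJB9 at 0.10, together with the transcription factor XBP1 at 0.07. In siYAP the list median was 0.01.

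**Figure D4:**
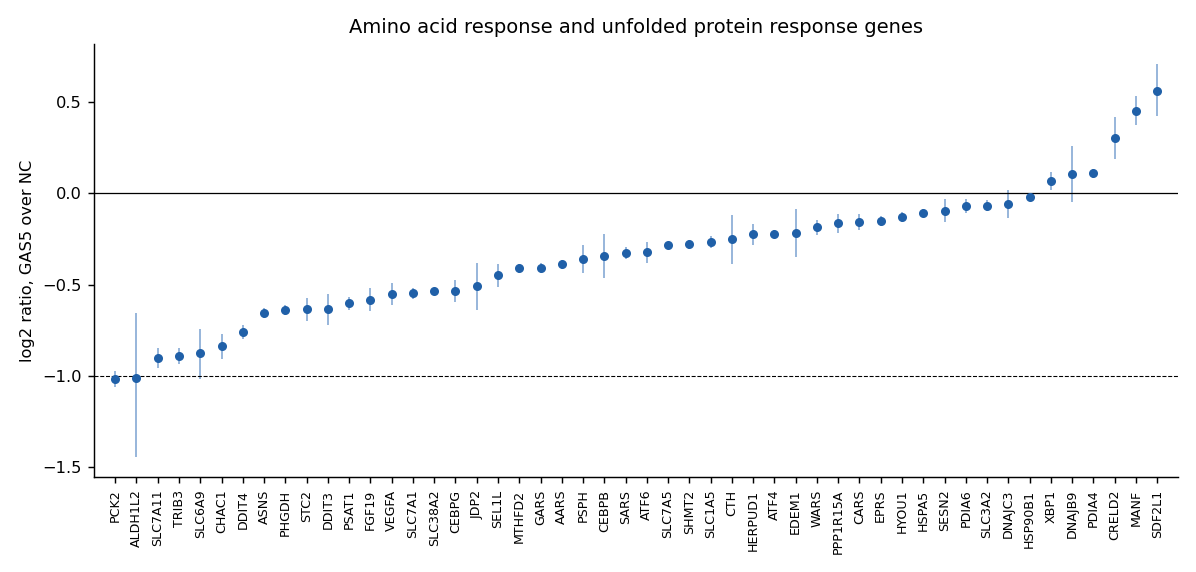
Log2 ratio of GAS5 over NC (y axis) for the 50 genes tested of the amino acid and unfolded protein response list, in rising order; bars are 95% counting intervals, which hold no spread between cultures, and the dashed line marks 2-fold lower. PCK2 and ALDH1L2 sit at the dashed line, 44 genes lie below 0 and SDF2L1 is highest at 0.56.

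The other genes that fell were mostly weakly expressed, and 33 of the 36 are in no list. IL20RB, a receptor chain for interleukin-20 family cytokines on chromosome 3 from 136946230 to 137011085, went from 242.5 to 74 mean counts, with 233.5 in siYAP. Its log2 ratio was -1.60, with a counting interval of -1.90 to -1.35. HKDC1, a hexokinase-like enzyme, went from 124 to 38 (-1.57) and LURAP1L from 127.5 to 40.5 (-1.52), with 229.5 and 176 in siYAP. CSTA, encoding the protease inhibitor cystatin A, went from 488 to 210.0 mean counts (-1.12), with 445 in siYAP. FAM241A, on chromosome 4 from 112145397 to 112195256, was one of the more abundant genes that fell, from 3055 to 1367 mean counts (-1.07), and was at 1537 in siYAP. BLID, which encodes a cell death inducer, went from 114 to 37.2 mean counts (-1.48) and was at 30.2 in siYAP. GOLGA8CP, a member of the near-identical golgin A8 family that includes pseudogenes, went from 823 to 188 mean counts (-2.02), all of them on assembled transcripts, and is uncertain for both reasons. The row named POL, with no gene position here, went from 2391 to 987 mean counts (-1.18), also all on assembled transcripts.

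Receptors and ligands of the EGFR family, with their feedback genes, were below 0 in 20 of 23 genes tested, with a median of -0.29 and none at 2-fold. Over all genes 54.7% were below 0, which is the background for this and the next lists. AREG, the ligand amphiregulin, was at -0.68, from 7660 to 4477 mean counts, the feedback inhibitor ERRFI1 at -0.49 and the phosphatase gene DUSP6 at -0.50. HBEGF was at 0.38. Integrins, laminins and focal adhesion genes had a median of -0.22, with 20 of 28 below 0. ITGA2 was at -0.66, from 3185 to 1891 mean counts, and ITGB4 at -0.52, from 21353 to 14004.5, while LAMA5 was at 0.28. Keratin, junction and intestinal differentiation genes had a median of -0.17, with 23 of 29 below 0, among them TJP3 at -0.57 and CDH1, which encodes E-cadherin, at -0.45. The simple keratins KRT8, KRT18 and KRT19 were above 0 at 0.31, 0.12 and 0.16. None of these 3 lists held a gene that reached 2-fold.

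Genes of the YAP pathway, which the study addressed, moved little as a group. The 22 YAP-TEAD targets tested had a median of 0.02, with 12 above 0 and 10 below. Of these 22, 1 rose, against 0.789% of all genes. With only the most abundant transcript of each gene the median was 0.22. CYR61, a secreted matricellular protein and a much used YAP target, went from 539.5 to 1058 mean counts, a log2 ratio of 1.06 with a counting interval of 0.96 to 1.17, and was at 621 in siYAP. CTGF, a related target, had 79.5 and 122 mean counts (0.70), with 84 in siYAP. Knockdown with YAP siRNA did not lower the YAP-TEAD list, which lay at a median of 0.11 over the same NC values. Whether YAP activity differed between NC and GAS5 was therefore not tested by these targets. YAP1 was at -0.28, from 3480 to 2679 mean counts, and TEAD1, its DNA-binding partner, at -0.35. The 25 genes of the Hippo core had a median of -0.14, with 19 below 0 and none at 2-fold. RASSF1 is not among these 25, but the deposited KEGG annotation places it in the Hippo signaling pathway. It was the 1 gene of 118 tested there that rose, a share near the 0.789% of all genes. RASSF1 went from 317 to 663.5 mean counts, with 315 in siYAP. Its log2 ratio was 1.15, with a counting interval of 1.02 to 1.29. YTHDF3, an m6A reader, was at 0.16.

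The neighbours of GAS5 on chromosome 1 were read for a local shift. Of the 11 tested, none reached 2-fold and the median was -0.08. ZBTB37, whose start lies next to that of GAS5, was at -0.35, from 752.5 to 555 mean counts, and TNFSF18 and TNFSF4, encoding cytokines of the tumour necrosis factor family, were at -0.58 and -0.54. Glucocorticoid receptor targets were described because GAS5 is known to bind that receptor. The 21 tested had a median of -0.04, with KLF9 at -0.82, TSC22D3 at -0.72, SGK1 at 0.65 and DUSP1 at 0.89.

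Across the pathway names in the deposited annotation, 248 KEGG pathways had at least 20 genes tested, and they overlap in their genes. The highest medians were those of the proteasome (0.27), DNA replication (0.19), ribosome biogenesis (0.17) and mismatch repair (0.17), then the spliceosome (0.14), terpenoid backbone synthesis (0.13), RNA polymerase (0.12) and cytosolic DNA sensing (0.12). The lowest were ECM-receptor interaction (-0.26), protein digestion and absorption (-0.26), salivary secretion (-0.24) and ARVC, a cardiomyopathy pathway (-0.20). Gastric acid secretion, glutamatergic synapse, pancreatic secretion and renin secretion followed, each at -0.20. All of these medians were far below 2-fold.

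Motif matches in the promoters were counted as a description, over 250 bases before to 50 after each annotated start. A RefSeq promoter was found for 9697 of the 11910 genes. The ISRE letters were present in 23 of 35 promoters of interferon-list genes that rose (65.7%), in 2 of 35 of the other genes that rose (5.71%), in 0 of 21 of the genes that fell and in 2.62% of all genes tested. Of all 27305 promoters of this length, 3.65% held them. The other 2 were TRIM34 and LGALS9, both described above. The CARE letters were present in 7 of 42 promoters of the joint amino acid and unfolded protein response list (16.7%), those of ASNS, CHAC1, SLC3A2, SLC7A1, AARS, CARS and HERPUD1, against 1.56% of all genes tested and 3.67% of all promoters. They were also present in 3 of 70 genes that rose (4.29%), ATF3, C4BPA and TLR3, and in 3 of 21 that fell (14.3%), IL20RB, IL21R and IQCJ-SCHIP1. IQCJ-SCHIP1 is taken up with the divided symbols below. IL21R, with 98.5 mean counts in NC and 42 in GAS5, did not count as fallen under 4 of 11 alternatives. The E2F letters were present in 16 of 43 promoters of the DNA replication list (37.2%), against 3.17% of all genes tested and 1.83% of all promoters. These lists were assembled from known targets, so matches in them are no independent evidence. The AP-1 letters were in 3 of 70 promoters of genes that rose (4.29%), against 4.08% of all genes tested. Those of NF-kappa B were in 4 of 70 (5.71%), against 2.07%. Also searched were TTCNNNGAA, named GAS, in 14 of 70 (20%) against 6%, and GGAATG, named TEAD, in 11 of 70 (15.7%) against 10.3%. In genes that fell these 4 motifs were in 1, 1, 1 and 2 of 21.

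Some of the largest ratios belong to counts that the tables divide between 2 symbols of the same gene. PIP4P2 went from 3.15 to 112 mean counts, a log2 ratio of 4.54, while TMEM55A, an older name of the same gene that is used for assembled transcripts, went from 237 to 79.9 (-1.46). Their sum went from 240.5 to 192, a log2 ratio of -0.23. LARGE2 was at 2.09 and its older name GYLTL1B at -0.72, with 0.23 for the sum. KIAA0226, the lowest ratio of all at -2.21, is an older name of RUBCN at 0.62, and their sum was at 0.28. The same held for GLTSCR2 and NOP53 (sum 0.05), SGK223 and PRAG1 (sum -0.47), CCT6 and CCT6A (sum 0.21) and KIAA0196 and WASHC5 (sum -0.07). HIST2H2AA3 fell by 1.75 on the log2 scale, but its identical copy HIST2H2AA4 was at 0.09 and the sum of the pair at -0.12. SCHIP1 rose by 1.12 and the read-through gene IQCJ-SCHIP1 fell by 1.31, with 0.12 for the sum. None of these 9 sums reached 2-fold.

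**Figure D5:**
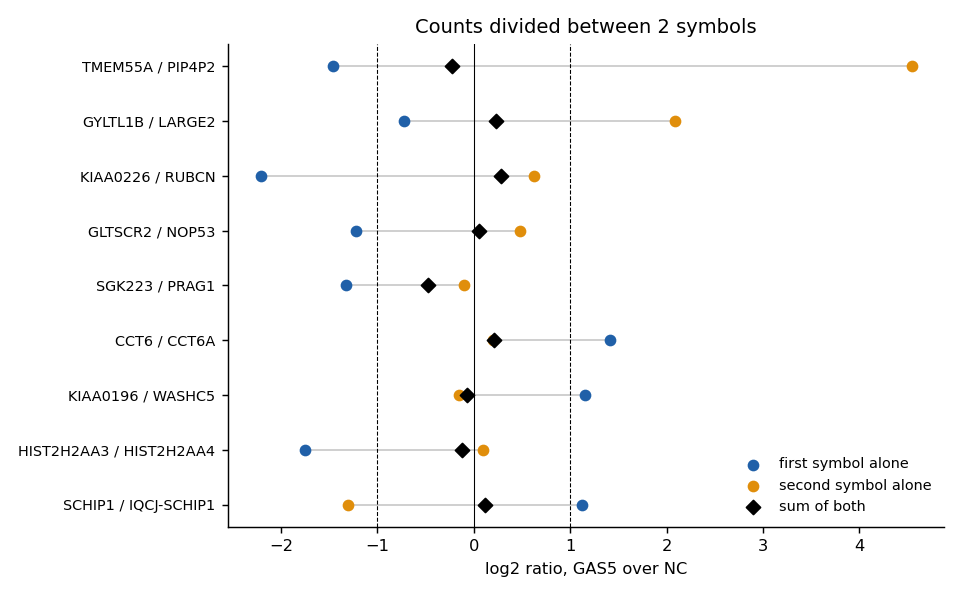
Log2 ratio of GAS5 over NC (x axis) for 9 pairs of symbols that divide the counts of 1 gene, of identical copies or of overlapping genes; blue and orange points are the symbols alone, black diamonds the sum of both, and dashed lines mark 2-fold. Every diamond lies between the dashed lines, from -0.47 for SGK223 with PRAG1 to 0.28 for KIAA0226 with RUBCN.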

How the data were processed

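Strand-specific libraries were made by the authors from Trizol-extracted RNA and read on an Illumina HiSeq. The submitters' processing notes name TopHat2 2.1.1, and the counting tool and genome build are not given in the sources used here. The deposited expected counts are estimated counts per mRNA transcript that the authors averaged over the 2 libraries of a group, and the deposited FPKM values were averaged by the authors likewise. The authors' fold change, p, FDR and significance columns, which hold their own comparison, were not used.

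Symbols were read in upper case by transcript identifier from the siYAP table, because 212 had become dates in the GAS5 table. Counts were summed over 92866 transcripts by symbol, leaving out 339 without one (0.224% of NC counts and 0.195% of GAS5 counts). Sums were scaled to counts per 1000000 of the total over all transcripts (CPM), and log2 ratios used a prior count of 2. Counting intervals were computed on 2 times the mean count. A test needs libraries, so the planned edgeR quasi-likelihood test was not run.

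The gene lists were chosen with earlier results of these data known. The genes named were the 10 highest ratios, the 20 highest outside the immune lists, the 20 lowest, the 10 most abundant that rose or fell, in each list the 3 highest, 3 lowest and 3 most abundant, the study's YAP1, CTGF, CYR61 and YTHDF3, and 3 on either side of the minimum. Other genes were named after their values were seen. Gene positions were matched by transcript identifier to GENCODE 29 (80779 of 80864 Ensembl transcripts). Work was done in R 4.3.3 with edgeR 4.0.16 and DESeq2 1.42.0, for scaling alternatives only, and in Python 3.11.15 with scipy 1.17.1, pandas 2.3.3 and matplotlib 3.10.9, and the steps were tested on simulated data. Some genes are not reported here.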

Additional observations from a re-analysis of the deposited data

How the results depend on the processing

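Of 11 alternatives run, the counts of genes that rose and fell stayed within 1.5 times 94 and 36 under TMM scaling, DESeq2 size factors, prior counts of 0.5 and 10, gene sums of FPKM, a minimum of 50 in NC alone and the merging of older symbols, the last of which was chosen after seeing the data. Without a minimum mean count 669 genes rose and 258 fell, and with a minimum of 200 the numbers were 52 and 11. With the most abundant transcript of each gene only, 144 rose and 163 fell, and with Ensembl transcripts only 136 rose and 95 fell. The median of all genes was 0.0015 under TMM scaling, 0.00035 under DESeq2 size factors, -0.0102 without a minimum and -0.0165 with Ensembl transcripts only. Merging older symbols turned the direction of PIP4P2 (-0.23), KIAA0226 (0.28), GLTSCR2 (0.0496) and KIAA0196 (-0.0736). Of the 94 genes, 47 rose under every alternative, and of the 36, CSTA, FAM241A, HIST2H2AA3, SLX1A and TCP11L2 fell under every one. A minimum of 200 removes weakly expressed genes by construction. None of the alternatives merged identical copies, and the sum of HIST2H2AA3 and its copy HIST2H2AA4 was at -0.12. The median of the interferon list ran from 1.08 to 1.23 over the alternatives, that of the joint amino acid and unfolded protein response list from -0.33 to -0.27, that of the proteasome list from 0.26 to 0.30 and that of the immediate-early list from 0.23 to 0.35. Less steady were the NF-kappa B list, from 0.09 to 0.33, the YAP-TEAD list, from 0.01 to 0.22, and the nucleic acid sensing list, from 0.08 to 0.33. No paired analysis was possible because each group is 1 averaged column, and leaving out a replicate could not be run for the same reason. Arms of 2 libraries merged into a mean leave the spread between cultures unknown.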

Other observations

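Splicing factors were mostly on the higher side, with 28 of 39 above 0 and a median log2 ratio of 0.08, and none rose 2-fold. SRSF2 and SRSF7, which encode SR proteins, were at 0.70 and 0.64, from 4157 to 6324 and from 1331 to 1951 mean counts, and PTBP2, a paralogue of PTBP1 known from neurons, was at 0.64. ESRP1, the epithelial splicing regulator, was at -0.57, from 8118 to 5113 mean counts. Cholesterol synthesis and uptake genes had a median of 0.05, with HMGCS1, the enzyme before HMG-CoA reductase, at 0.59, INSIG1 at 0.54, and the sterol exporter ABCG1 at -0.91, from 201 to 99.5 mean counts. Glycolysis and hypoxia genes had a median of -0.02. There the enzymes LDHA and PGAM1 were at 0.41 and 0.43, and DDIT4, SLC2A3 and VEGFA were at -0.76, -0.64 and -0.55. The hypoxia-induced carbonic anhydrase CA12 rose by 1.02 from 44.0 to 86 mean counts, with 93.3 in siYAP. It was tested only through its GAS5 value and did not count as risen under 5 of 11 alternatives. Its most abundant transcript alone was at 0.44.

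Ribosomal protein genes had a median of 0.02 over 82 genes and none reached 2-fold, TOP mRNAs of translation factors had a median of -0.06 over 22, and numbered zinc finger genes one of 0.02 over 338, of which 3 rose, near the 0.789% of all genes. Lysosome and autophagy genes had a median of -0.11, with 24 of 30 below 0 and MAP1LC3B at -0.34. Histone genes had a median of -0.10 over 48 genes, with HIST2H2AA3 as the member that fell, though its sum with the identical copy HIST2H2AA4 was at -0.12. Small RNA machinery genes had a median of -0.03 over 16 genes, among them EIF2AK2, the RNA-activated kinase PKR, which is also on the interferon list and rose by 1.16. The lists of actin and SRF, Wnt, TGF-beta and BMP, BCL2 family, fatty acid, NRF2, metallothionein, m6A, DNA methylation and Polycomb genes and of growth factor and cytokine ligands had medians between -0.18, for plasminogen and matrix protease genes, and 0.07, for nonsense-mediated decay factors.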
